A study of Mus musculus with 3 samples.

Results

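The genes described here are 63 splicing factors among the 12852 genes of an RNA sequencing table from mouse melanoma cells. They were taken by symbol and fall into 5 classes: 20 heterogeneous nuclear ribonucleoprotein genes (symbols starting Hnrn or Hnrp), 11 genes of serine/arginine-rich (SR) proteins (Srsf or the older Sfrs), 8 genes of the SF3a and SF3b complexes, 11 Snrp genes for small nuclear ribonucleoprotein (snRNP) subunits and 13 Prpf genes for pre-mRNA processing factors. The cells were B16F10, a pigmented mouse melanoma line grown in DMEM with serum. One group was control cells, titled siCtrl and labelled wild type (1 library). The other was cells with Med23 knocked down, titled siMed23A and siMed23B and labelled knockdown-1 and knockdown-2 (2 libraries). No agent other than the siRNA implied by the titles was named, and neither the siRNA used in A and B nor their cultures are described in the labels, so p-values measure only the spread between these libraries, which may be technical. In the deposited header both knockdown names share a cell, so first and second knockdown library here mean only column order, not A and B.

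Splicing removes introns through the spliceosome, which is built from snRNPs. Each spliceosomal snRNP except that of U6 carries a ring of Sm proteins around its RNA, together with proteins of its own, and SF3a and SF3b belong to the U2 snRNP that marks the branch point. SR proteins bind exonic sequences and mostly favour use of nearby splice sites, while hnRNP proteins coat nascent RNA and often act against them. Many SR and hnRNP genes limit their own expression through alternative exons that send the transcript to decay, and a gene-level value does not separate such transcripts from those that are translated. Med23 protein belongs to Mediator, which relays signals from transcription factors to RNA polymerase II. It is known as the contact of the ETS-family factor Elk1 with Mediator, and it has been linked to splicing through a contact with hnRNP L, the product of Hnrnpl.

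Because of that link with an ETS-family factor, the promoters of the splicing factors were searched for the ETS-type motif CCGGAAGT on either strand. The RefSeq promoter table (build GRCm38.p6, 250 bases before to 50 after each start) held 54 of the 63 genes, and 11 of them (20.4%) had the motif in at least 1 promoter. Among tested genes with a promoter matched by symbol the share was 710 of 6986 (10.2%), and over all promoters in the table it was 3.89%. By the outcome given below, the motif was found in 2 of 21 matched genes that rose, in 0 of 11 that fell and in 9 of 22 that did not pass the test. A match is a description of letters, not a bound site, and a promoter with no match says only that these letters are not in the window. The 150 bases before the start are shown for the genes with the largest rises (Srsf3 and Snrpg), for the hnRNP gene with the largest fall on the log2(RPKM + 1) scale (Hnrnpab), for Hnrnpl, and for 2 genes with the motif, of which Sf3a3 rose and Srsf5 did not pass. Capitals mark the motif or its reverse complement, and each sequence runs 5′ to 3′ in the direction of transcription.
Srsf3, chr17:29032510-29032659, plus strand: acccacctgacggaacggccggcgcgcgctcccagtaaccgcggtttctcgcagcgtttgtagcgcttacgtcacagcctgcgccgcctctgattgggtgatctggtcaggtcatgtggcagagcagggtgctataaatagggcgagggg
Snrpg, chr6:86371390-86371539, plus strand: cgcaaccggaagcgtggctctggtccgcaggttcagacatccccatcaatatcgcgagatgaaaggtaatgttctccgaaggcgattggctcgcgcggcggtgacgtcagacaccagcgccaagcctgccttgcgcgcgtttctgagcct
Hnrnpab, chr11:51606882-51607031, minus strand: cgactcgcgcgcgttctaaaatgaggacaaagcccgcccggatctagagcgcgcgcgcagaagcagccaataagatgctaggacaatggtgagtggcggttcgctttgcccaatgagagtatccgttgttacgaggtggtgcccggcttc
Hnrnpl, chr7:28810740-28810889, plus strand: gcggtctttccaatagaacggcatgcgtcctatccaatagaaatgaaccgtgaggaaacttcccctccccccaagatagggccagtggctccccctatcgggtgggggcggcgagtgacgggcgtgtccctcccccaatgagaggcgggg
Sf3a3, chr4:124714711-124714860, plus strand: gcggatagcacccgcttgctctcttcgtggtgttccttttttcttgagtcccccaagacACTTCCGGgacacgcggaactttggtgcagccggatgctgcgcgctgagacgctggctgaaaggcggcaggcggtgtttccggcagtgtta
Srsf5, chr12:80945349-80945498, plus strand: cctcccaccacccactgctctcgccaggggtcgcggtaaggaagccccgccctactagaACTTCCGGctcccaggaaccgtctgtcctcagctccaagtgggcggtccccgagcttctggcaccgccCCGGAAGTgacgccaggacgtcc
Srsf5 carried the motif on both strands, once in each direction, whereas none of Srsf3, Snrpg, Hnrnpab and Hnrnpl had it in the full window of 300 bases.

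Values were RPKM, read counts scaled by transcript length and library total, which the authors had made equal in distribution across the 3 libraries, so read depth was unknown and a change in total RNA could not be seen. In bulk RNA, fewer cells of a kind and less RNA per cell cannot be told apart. Differences are log2 ratios of knockdown to control on the log2(RPKM + 1) scale, which understates changes of low genes, and a gene was called when its limma p-value, adjusted by Benjamini-Hochberg over the 9722 genes tested (mean over the libraries not below 1 RPKM), was under 0.05. The control had 1 library, so the test takes its spread from the knockdown libraries and from all genes. Med23 itself stood at 5.23 RPKM in the control library, at 1.65 RPKM in the first knockdown library and at 1.61 RPKM in the second (log2 ratio -1.24, SE 0.11, limma adjusted p = 0.00121). All 12 melanocyte markers looked up had a mean over 1 RPKM, and 11 of them were called lower, with a summed level of 7152 RPKM in the control and 3057 and 2946 RPKM after knockdown. Of markers of other cells, Cd68, a lysosomal protein of macrophages, was at 16.9, 10.0 and 10.1 RPKM, and Lyz2, a lysozyme, at 0.646, 1.19 and 1.18 RPKM. The table listed 3 of 9 leukocyte, 2 of 5 endothelial, 2 of 6 fibroblast and 0 of 6 epithelial markers looked up, and the 5 of them other than Cd68 and Lyz2 were under 1 RPKM in each library. Summed leukocyte markers went from 18.1 RPKM in the control to 11.5 and 11.7 RPKM, endothelial ones from 0.331 to 0.159 and 0.125 RPKM, and fibroblast ones from 0.340 to 0.650 and 0.924 RPKM. The part of these differences in the results on splicing factors was not tested.

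All 63 splicing factors passed the filter, and the lowest mean was 2.22 RPKM. After Med23 knockdown 23 of them rose and 14 fell by limma's test, while 26 were not called. Of all genes tested, 50.3% were called, 26.3% higher and 24.0% lower. The share of splicing factors that rose (36.5%) was thus above that of all genes, and the share that fell (22.2%) was near it. The classes differed: 81.8% of Snrp genes rose, but 25% of hnRNP, 18.2% of SR, 37.5% of SF3 and 30.8% of Prpf genes. Most differences were small. Only Srsf3 and Snrpg differed at least 2-fold on the log2(RPKM + 1) scale in both knockdown libraries, both upwards, and 0 did so downwards. Of all genes 5.40% passed this limit, 2.57% upwards and 2.83% downwards. At a limit of 1.5-fold 9 splicing factors were higher and 3 lower, with 10.5% and 9.98% of all genes. The median log2 ratio was 0.07 for the 63 genes and 0.01 for all genes tested. The calls rest on the assumption that the lone control varied like a knockdown library: if its SD is assumed to be 3 times larger, limma called 0 of the 63 (11 higher and 4 lower at an unadjusted p under 0.05), and 1.21% of all genes higher and 0.792% lower.

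**Figure D1:**
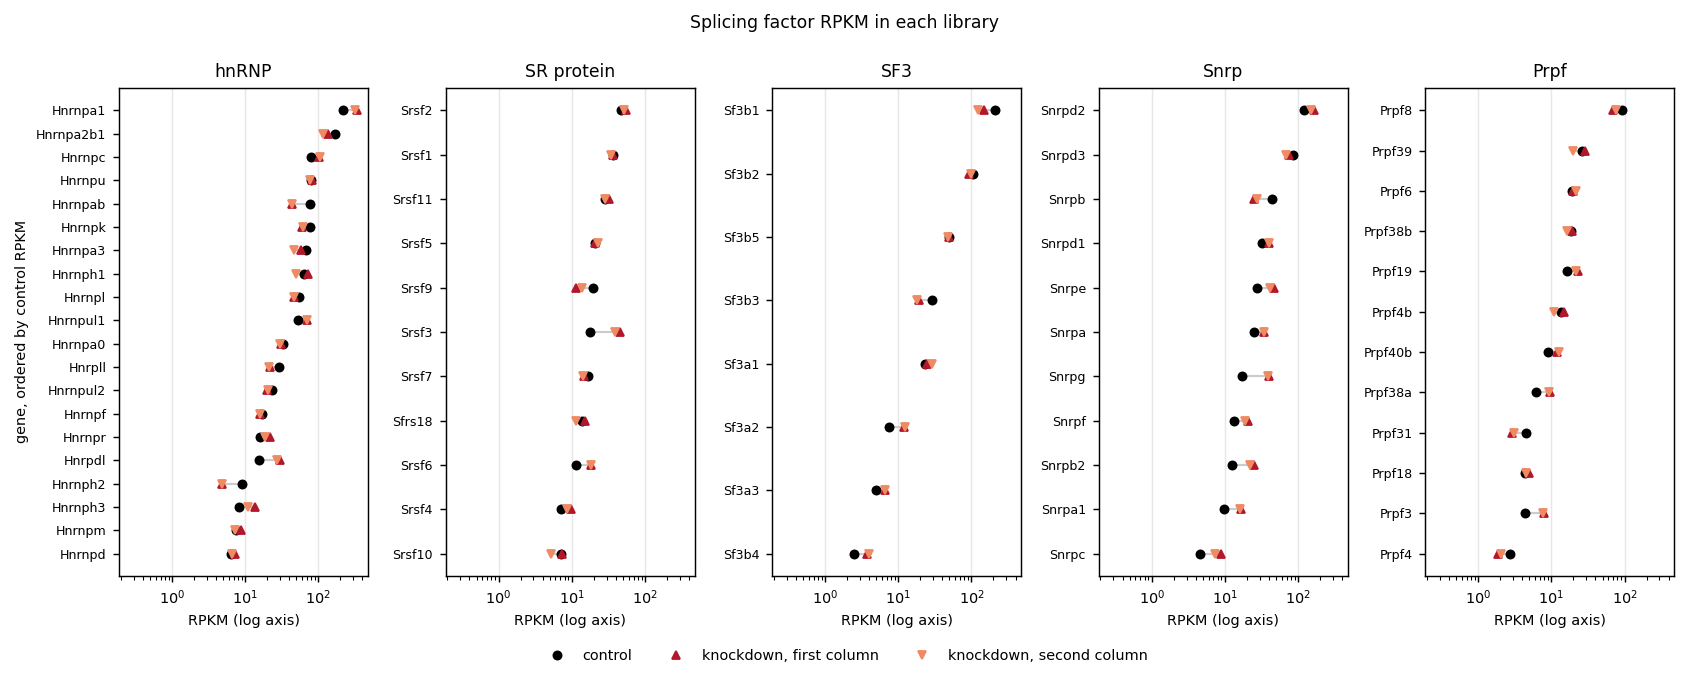
RPKM of the splicing factors on a log axis, by class, with genes ordered by their control value; circles are the control library, and upward and downward triangles are the first and second knockdown libraries. Hnrnpa1 and Sf3b1 were the most abundant in the control, at 214 and 209 RPKM, and Srsf3 and Snrpg show the widest gaps between control and knockdown.

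Of the 11 Snrp genes 9 rose (81.8%) and 2 fell (18.2%), so each passed the test, against 26.3% and 24.0% of all genes. Their median log2 ratio was 0.50, and their summed RPKM went from 391 in the control to 496 and 465 in the knockdown libraries. Snrpg, a small protein of the Sm ring, was 17.3 RPKM in the control, then 40.0 and 39.2 RPKM after knockdown. Both knockdown values lay well above the control, a 2.28-fold higher mean (log2 ratio 1.15, SE 0.08, limma adjusted p = 0.000532). Snrpe, which sits beside Snrpf and Snrpg in the ring, was 27.6 RPKM in the control, then 46.3 and 41.5 RPKM after knockdown (log2 ratio 0.65, limma adjusted p = 0.00402). Snrpf rose from 13.5 to 20.6 and 18.6 RPKM, so all 3 genes of this stretch of the ring rose.

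The remaining ring genes went in both directions. Snrpd1 and Snrpd2, whose products pair in the ring, rose from 32.3 to 40.7 RPKM in each knockdown library and from 119 to 163 and 150 RPKM. Snrpb and Snrpd3, which also pair with each other, fell. Snrpb was 43.8 RPKM in the control, then 25.1 and 27.6 RPKM after knockdown, a 1.66-fold lower mean (log2 ratio -0.71, SE 0.09, limma adjusted p = 0.00288). Snrpd3 was 85.4 RPKM in the control, then 75.1 and 68.1 RPKM after knockdown, a smaller difference (log2 ratio -0.25, limma adjusted p = 0.0445) that did not pass with no filter, a minimum of 5 RPKM or no intensity trend (adjusted p = 0.0633, 0.0504 and 0.108). Thus 5 of the 7 ring genes rose and 2 fell. Snrpb had rank 3 by RPKM among Snrp genes in the control and rank 7 after knockdown, while Snrpg went from rank 7 to rank 5. The ratio of the highest to the lowest RPKM within the ring was 8.79 in the control and 7.92 and 8.03 in the knockdown libraries. Values per length of the transcript compare levels between genes here, although these proteins occur in equal numbers in the assembled ring.

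All 4 Snrp genes whose products belong to 1 snRNP rose. Of the U2 proteins, Snrpb2 was 12.7 RPKM in the control, then 24.7 and 22.0 RPKM after knockdown (log2 ratio 0.83, SE 0.10, limma adjusted p = 0.00282), and its partner Snrpa1 was 9.87, then 16.6 and 16.04 RPKM. Of the U1 proteins, Snrpc, which helps U1 hold the 5′ splice site, was 4.59 RPKM in the control, then 8.96 and 7.39 RPKM after knockdown (log2 ratio 0.71). Snrpa, which binds a loop of U1 RNA, was 25.2 RPKM, then 34.4 and 34.1 RPKM (log2 ratio 0.43). The summed level of these 4 genes went from 52.4 to 84.7 and 79.5 RPKM, and the knockdown values of each lay above its control. Snrnp70, a more abundant U1 gene that the symbols taken here leave out, did not pass. It was 81.7 RPKM in the control, then 83.2 and 81.6 RPKM (log2 ratio 0.01, limma adjusted p = 0.889).

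Snrp transcripts are short, and length moved with the log2 ratio in this table. The median length was 1055 nt for Snrp genes and 2470 nt for all genes tested. Across all tested genes with a length (9614) the Spearman correlation of log2 ratio with length was -0.35, and over the 63 splicing factors it was also -0.35. These are correlations across genes of the same libraries, and genes are not independent replicates. Among tested genes between 442 and 2061 nt, the range of the Snrp class, 39.6% were called higher and 15.1% lower. After a loess correction of each library for length and GC content, 8 Snrp genes were called higher and 2 lower, with 27.2% and 22.7% of all genes called. With the longest transcript of each gene in place of the one of median length, an alternative chosen after seeing the data, 6 were called higher and 2 lower (27.8% and 24.6% of all genes), and the class median was 0.35 and 0.20 under the respective corrections. Snrpd1 was not called under either correction (adjusted p = 0.264 and 0.898), and Snrpa and Snrpf were not called under the second (adjusted p = 0.0787 and 0.0907). Snrpb fell further, with log2 ratios of -0.93 and -0.99, and Snrpg stayed higher, with 1.00 and 0.89. For Snrpd2 the log2 ratio went from 0.39 to 0.26 and 0.18, for Snrpe from 0.65 to 0.40 and 0.28, for Snrpc to 0.47 and 0.44 and for Snrpa1 to 0.53 and 0.44. Snrpd3 had -0.54 and -0.22. Sequence shared with other genes adds a further limit. On either strand, 89.5% of the 50-base words of the Snrpf transcript occurred in transcripts of other genes of the annotation. The share was 31.5% for Snrpa, 28.4% for Snrpe, 22.7% for Snrpc and 18.6% for Snrpg. For the rest of the class it was at most 11.7%, with 0.0899% for Snrpb.

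**Figure D2:**
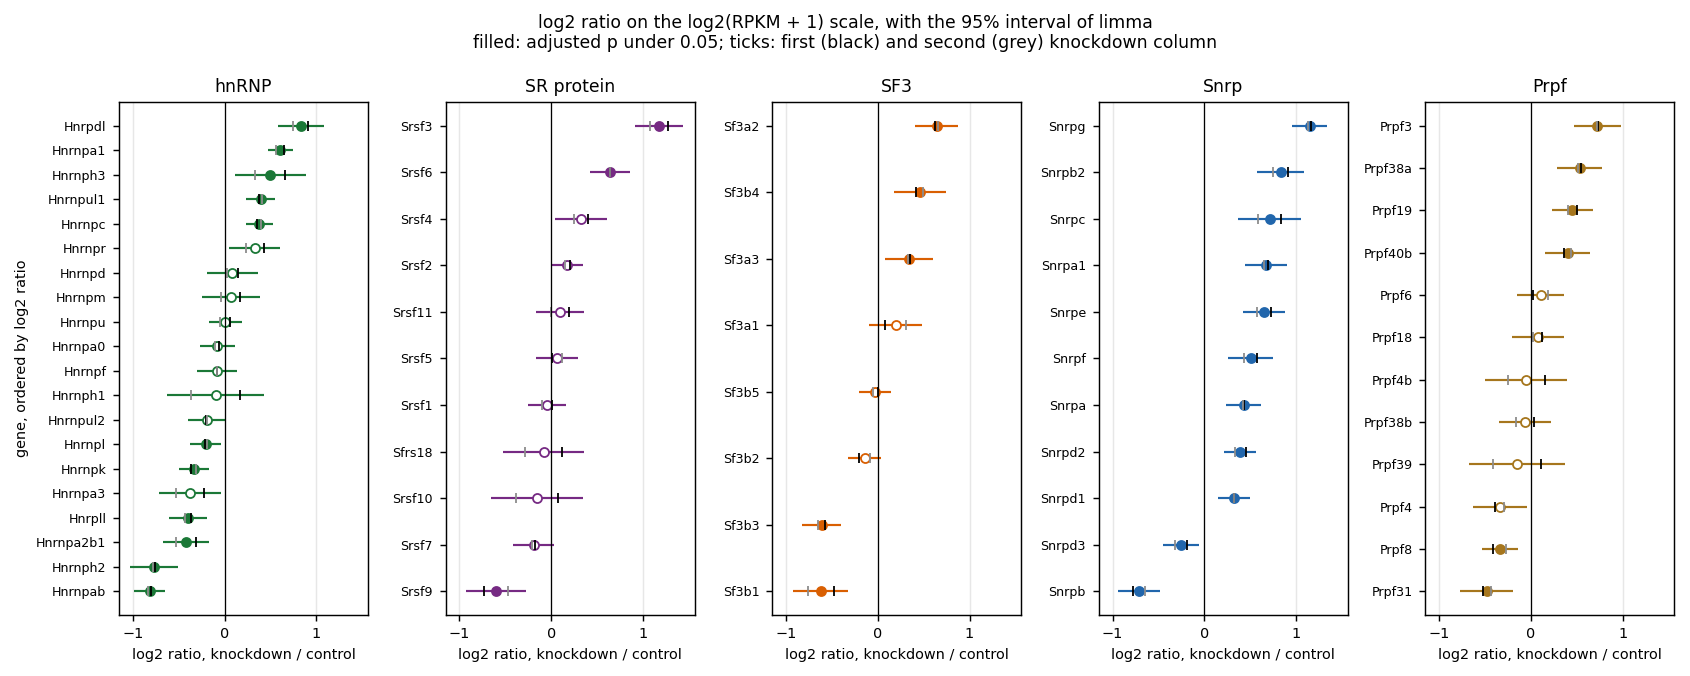
Log2 ratio of knockdown to control for the splicing factors, by class and in order of size, with the 95% interval of limma as a line; filled points have an adjusted p under 0.05, and black and grey ticks are the first and second knockdown libraries. In the Snrp panel 9 of 11 points lie above 0 with Snrpd3 and Snrpb below, whereas most SR points are open and near 0.

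**Figure D3:**
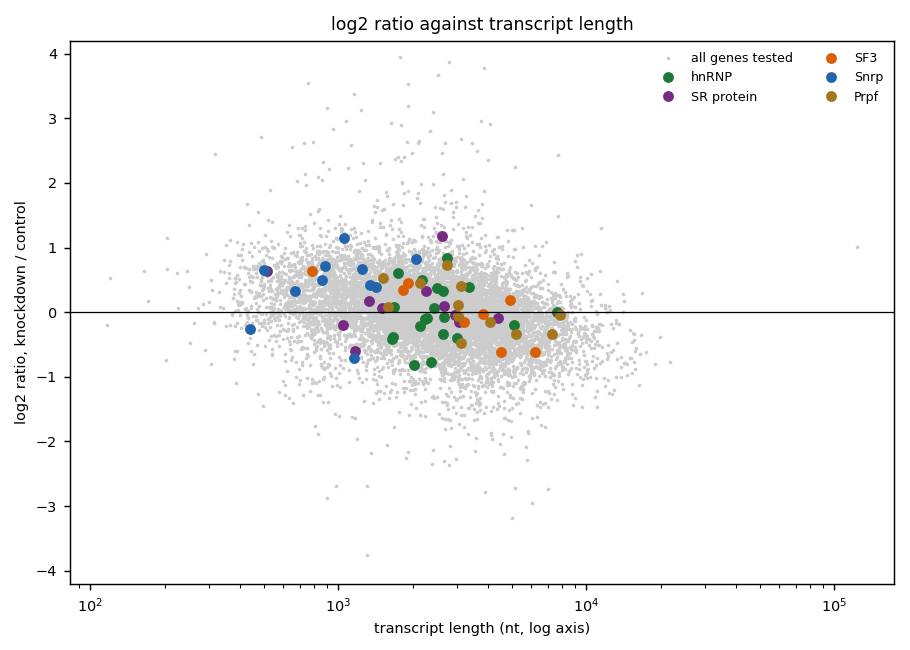
Log2 ratio of knockdown to control against transcript length on a log axis, with all tested genes in grey and the splicing factors coloured by class. Grey points at short lengths lie more often above 0, and the Snrp genes, with a median of 1055 nt, lie in that range.

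The hnRNP genes went both ways, with 5 higher (25%), 6 lower (30%) and 9 not past the test, and a median log2 ratio of -0.08. Of all genes tested 26.3% were called higher and 24.0% lower, so the class was near the shares of all genes. Hnrnpl was 54.2 RPKM in the control, then 46.5 and 47.1 RPKM after knockdown. Both knockdown values lay below the control by a small margin (log2 ratio -0.21, 95% interval -0.37 to -0.04, limma adjusted p = 0.0489). This call was lost with no filter, with quantile normalization over the tested genes and with no intensity trend (adjusted p = 0.0517, 0.0509 and 0.116). Under both corrections for length and GC content Hnrnpl was called lower (log2 ratios -0.26 and -0.27, limma adjusted p = 0.0180 and 0.00983). Its paralog Hnrpll (now Hnrnpll), which directs Cd45 splicing in lymphocytes, was 28.6 RPKM in the control, then 21.9 and 20.8 RPKM after knockdown (log2 ratio -0.40, SE 0.08, limma adjusted p = 0.0121), with log2 ratios of -0.25 and -0.34 under the corrections for length and GC content. Both genes of this pair were thus lower, and Hnrnpl remained the more abundant in each library.

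Among paralogs related to Hnrnpd, an AU-rich element binding protein, values diverged. Hnrnpab was 77.8 RPKM in the control, then 44.3 and 43.3 RPKM after knockdown, the largest fall among the 63 genes on the log2(RPKM + 1) scale (log2 ratio -0.82, SE 0.07, limma adjusted p = 0.000898). On the RPKM scale Hnrnph2 fell further, with a change of -45.9% against -43.8% for Hnrnpab, and under both corrections Snrpb did. Hnrpdl (now Hnrnpdl) was 15.6 RPKM, then 30.3 and 26.9 RPKM, the largest rise in the class without correction (log2 ratio 0.83, SE 0.10, limma adjusted p = 0.00256). Hnrnpd itself was 6.42 RPKM in the control, then 7.21 and 6.55 RPKM after knockdown (log2 ratio 0.08, 95% interval -0.19 to 0.36). In the control Hnrnpab stood at about the level of Hnrnpk and Hnrnpdl at that of Hnrnpr, and after knockdown Hnrnpab had rank 10 among the 20 hnRNP genes where it had had rank 5. Hnrnpd was called higher only in the correction with longest transcripts (log2 ratio 0.46, limma adjusted p = 0.00454).

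The A/B group held the most abundant members. Hnrnpa1, which binds exonic and intronic silencers, rose from 214 to 336 and 316 RPKM (log2 ratio 0.61, SE 0.05, limma adjusted p = 0.00113). Hnrnpa2b1, its close relative, fell from 167 to 134 and 115 RPKM (log2 ratio -0.42, limma adjusted p = 0.018), a call lost with no intensity trend (adjusted p = 0.0509). Hnrnpa3 was 68.1 RPKM in the control, then 58.2 and 46.7 RPKM after knockdown, and Hnrnpa0 was 32.6, then 31.3 and 30.2 RPKM. Neither passed, although Hnrnpa3 was called lower in the first correction for length and GC content (log2 ratio -0.41, limma adjusted p = 0.0116). Hnrnpa1 and Hnrnpa3 shared much sequence with other genes: 54.1% and 91.0% of their 50-base words occurred in other annotated transcripts, against 2.25% for Hnrnpa2b1. The level of the class as a whole depended on Hnrnpa1. Summed hnRNP RPKM was 1097 in the control and 1179 and 1094 after knockdown, a mean change of 3.63%. The change was -8.23% without Hnrnpa1 and -0.251% in the second knockdown library alone.

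In the F/H group, which binds runs of G, Hnrnph2 fell from 8.92 to 4.88 and 4.78 RPKM (log2 ratio -0.77, SE 0.10, limma adjusted p = 0.00352). Of its 50-base words, 30.9% occurred in other annotated transcripts. Hnrnph3 was 8.35 RPKM in the control, then 13.8 and 10.8 RPKM after knockdown (log2 ratio 0.50, limma adjusted p = 0.0435), a call lost with no filter, with a minimum of 5 RPKM and with no intensity trend (adjusted p = 0.0713, 0.0520 and 0.0618). Hnrnph1, the most abundant of the group, was 63.3 RPKM in the control but 71.2 and 48.9 RPKM in the knockdown libraries, on either side of it. Hnrnpf was 16.9, then 15.8 and 15.9 RPKM (log2 ratio -0.08, 95% interval -0.30 to 0.13).

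Of the other hnRNP genes, Hnrnpc, which binds runs of U and measures RNA length, rose from 79.3 to 102 and 105 RPKM, and Hnrnpul1, which also acts at DNA breaks, rose from 53.0 to 69.2 and 70.7 RPKM (log2 ratios 0.38 and 0.39). Hnrnpk, which binds runs of C, fell from 77.4 to 60.0 and 62.2 RPKM (log2 ratio -0.34, limma adjusted p = 0.0100). Of its 50-base words, 41.9% occurred in other annotated transcripts, and this share was over 20% for 17 of the 63 genes. Hnrnpu, a nuclear scaffold protein, was 79.0, then 82.2 and 76.3 RPKM. It had the smallest log2 ratio of the 63 genes (0.00, 95% interval -0.18 to 0.18), although it was called higher under both corrections for length and GC content (log2 ratios 0.53 and 0.44), and its transcript of 7640 nt is long. Hnrnpm, Hnrnpr and Hnrnpul2 did not pass, with log2 ratios of 0.07, 0.33 and -0.20. Hnrnpr was called higher under both corrections (log2 ratios 0.44 and 1.04), and its value thus depended on the transcript taken.

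Most SR genes did not pass: 2 rose (18.2%), 1 fell (9.09%) and 8 did not pass, with a median log2 ratio of 0.06. Of all genes tested 26.3% were called higher and 24.0% lower, so both shares were below those of all genes, over only 11 genes. Srsf3, the smallest SR protein, which also takes part in mRNA export, was 18.04 RPKM in the control, then 45.1 and 39.2 RPKM after knockdown. Both knockdown values were more than 2-fold above the control (log2 ratio 1.18, SE 0.10, limma adjusted p = 0.00115), the largest difference among the 63 genes. Under the corrections for length and GC content it was 1.33 and 1.22. Of its 50-base words, 31.5% occurred in other annotated transcripts. Among SR genes Srsf3 went from rank 6 to rank 2 by RPKM, behind Srsf2.

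Srsf6 rose from 11.5 to 18.4 and 18.5 RPKM (log2 ratio 0.64, SE 0.09, limma adjusted p = 0.00347), with knockdown values that nearly coincided. Its log2 ratio was 0.33 in the first correction for length and GC content, which used a transcript of 515 nt, and 0.77 in the second. Srsf9, a relative of Srsf1, fell from 19.8 to 11.5 and 13.9 RPKM (log2 ratio -0.60, SE 0.13, limma adjusted p = 0.0140). The founding members did not pass. Srsf1, a general splicing factor and the product of a known oncogene, was 36.8 RPKM in the control, then 37.1 and 34.3 RPKM after knockdown (log2 ratio -0.05, 95% interval -0.25 to 0.16), and was called higher only in the correction with longest transcripts (0.27, adjusted p = 0.0173). Srsf2, the most abundant SR gene, was 47.2, then 54.4 and 52.4 RPKM (limma adjusted p = 0.0829). Srsf4, Srsf5, Srsf7 and Srsf11 had log2 ratios of 0.32, 0.06, -0.19 and 0.09. Srsf10, which acts as a repressor when dephosphorylated, was 7.05 RPKM in the control, then 7.47 and 5.18 RPKM after knockdown. Sfrs18 (now Pnisr), an SR-rich protein outside the classical family, was 14.0, then 15.3 and 11.3 RPKM, so the control lay between the knockdown libraries for both.

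SF3 genes went both ways, with 3 higher (37.5%), 2 lower (25%) and 3 not past the test, against 26.3% and 24.0% of all genes. Sf3b1, the large subunit that clasps the branch point and is mutated in some melanomas, fell from 209 to 150 and 123 RPKM (log2 ratio -0.62, SE 0.12, limma adjusted p = 0.00983). Sf3b3, which binds Sf3b1, fell from 29.0 to 19.1 and 18.2 RPKM (log2 ratio -0.61, SE 0.08, limma adjusted p = 0.00377). Corrections for length and GC content made the fall of Sf3b1 smaller, -0.19 and -0.29 (adjusted p = 0.0409 and 0.00549), and that of Sf3b3 -0.40 and -0.47. Sf3b2 was 106 RPKM in the control, then 91.4 and 99.6 RPKM after knockdown, and Sf3b5 was 49.8, then 49.7 and 47.8 RPKM, neither past the test, and the log2 ratio of Sf3b5 was above 0 under both corrections (0.18 and 0.10). Sf3b4, an RNA-binding subunit, rose from 2.52 to 3.71 and 3.96 RPKM (log2 ratio 0.46, limma adjusted p = 0.0215), a call lost in the correction with longest transcripts (adjusted p = 0.0639). Of its 50-base words, 51.2% occurred in other annotated transcripts.

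In SF3a, Sf3a2 rose from 7.52 to 12.1 and 12.4 RPKM (log2 ratio 0.64, SE 0.09, limma adjusted p = 0.00459), with 0.39 and 0.46 under the corrections. Sf3a3 rose from 4.998 to 6.65 and 6.54 RPKM (log2 ratio 0.34, limma adjusted p = 0.0405), a call lost with no filter and under both corrections for length and GC content (adjusted p = 0.0650, 0.0549 and 0.147). Sf3a1 was 23.5 RPKM in the control, then 24.9 and 29.3 RPKM after knockdown (limma adjusted p = 0.204) and was called higher under both corrections (log2 ratios 0.42 and 0.35). By the calls, 2 of 3 SF3a genes rose, and of 5 SF3b genes 1 rose and 2 fell. Over all 63 splicing factors 31 were above the control in both knockdown libraries and 22 below it, called or not, against 46.6% and 44.2% of all genes tested. Summed SF3b RPKM was 396 in the control and 314 and 292 after knockdown, and that of SF3a was 36.0, then 43.7 and 48.3. The class sum changed by -19.2%, and by -4.57% without Sf3b1, its most abundant gene.

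Prpf genes were mixed, with 4 higher (30.8%), 3 lower (23.1%) and 6 not past the test, against 26.3% and 24.0% of all genes. Those of the U4/U6 and U5 snRNPs, which form the tri-snRNP, did not share a direction. Prpf3, of the U4/U6 snRNP, rose from 4.33 to 7.86 and 7.75 RPKM (log2 ratio 0.72, SE 0.10, limma adjusted p = 0.00402). Its partner Prpf4 was 2.74 RPKM in the control, then 1.86 and 2.06 RPKM after knockdown (limma adjusted p = 0.0613, and 0.0451 with no intensity trend). Prpf31, which also binds U4 and is mutated in retinitis pigmentosa, fell from 4.55 to 2.86 and 3.09 RPKM (log2 ratio -0.48, SE 0.11, limma adjusted p = 0.0189). Prpf8, the scaffold of the catalytic centre, fell from 92.4 to 69.4 and 76.7 RPKM (log2 ratio -0.34, limma adjusted p = 0.0189). The Prpf8 call was lost with no intensity trend (adjusted p = 0.0562), and under the corrections for length and GC content its log2 ratio was 0.01 and -0.05 (adjusted p = 0.915 and 0.608). Prpf6, which bridges the U5 and U4/U6 parts, was 19.1, then 19.5 and 21.9 RPKM. The class sum fell on average by 5.28% and was 5.02% higher without Prpf8.

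Outside the tri-snRNP, Prpf19, the ubiquitin ligase of the Prp19 complex, rose from 16.2 to 23.3 and 21.7 RPKM (log2 ratio 0.45, limma adjusted p = 0.0111). Prpf38a, which joins at activation, rose from 6.20 to 9.53 and 9.26 RPKM (log2 ratio 0.53, SE 0.10, limma adjusted p = 0.00918). Prpf40b, a U1-associated protein, rose from 9.13 to 12.0 and 12.8 RPKM (log2 ratio 0.40, limma adjusted p = 0.0208). Prpf18, which acts in the second step of splicing, Prpf38b, Prpf39, a U1 partner, and Prpf4b, a kinase of the spliceosome, did not pass, with log2 ratios of 0.07, -0.06, -0.15 and -0.05. Prpf4b was called higher under both corrections (0.49 and 0.40), and its transcript is 7844 nt long.

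The knockdown libraries differed from each other for a group of these genes. In 8 of the 63 the second library was lower than the first by more than 0.3 on the log2 scale, and in 0 it was higher by as much. Of all genes tested 5.36% and 1.29% passed these limits. Among them were Hnrnph1, Prpf39, Srsf10, Prpf4b, Sfrs18, Hnrnph3 and Hnrnpa3, with differences from -0.53 to -0.31. Transcripts of the 8 genes had a median GC content of 42.0% (37.0% to 44.8%), and the other 55 genes had 49.5%. Across the 63 genes the Spearman correlation of this difference with GC content was 0.52, and across all 9614 tested genes with a sequence 0.32, again over genes that share libraries. The control value lay between the knockdown values in 10 of the 63, and in 9.22% of all genes tested. The 95% interval of the log2 ratio of Hnrnph1, with the largest such difference, was -0.63 to 0.43.

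**Figure D4:**
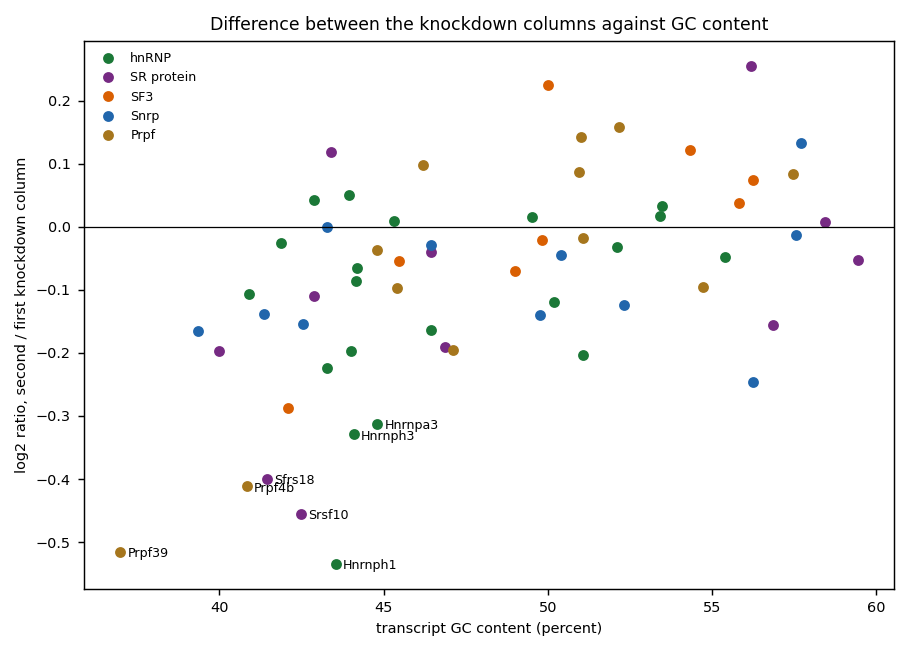
Difference between the second and first knockdown libraries (log2 ratio) against transcript GC content in percent, for the splicing factors coloured by class. The 7 labelled genes, more than 0.3 below 0, have a GC content of at most 44.8%.

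Other genes of splicing, in 7 lists with 208 genes in the table and 199 tested, gave 57 higher, 39 lower and 103 not past the test (28.6% and 19.6%, against 26.3% and 24.0% of all genes), with a median log2 ratio of 0.05. Of 34 other snRNP proteins, 8 rose (23.5%) and 6 fell (17.6%). Snrnp48 and Snrnp35, both of the minor U11/U12 snRNP, moved apart, from 12.4 to 27.0 and 25.2 RPKM and from 3.56 to 1.69 and 1.87 RPKM, and Lsm5, of the U6 ring, rose from 20.8 to 36.0 and 32.8 RPKM. Among 9 genes for recognition of the branch point and 3′ splice site, 3 rose (33.3%) and 2 fell (22.2%). U2af1l4, a relative of the small U2AF subunit, rose from 2.06 to 4.16 and 4.34 RPKM, and Uhmk1, a kinase that phosphorylates Sf1, fell from 29.3 to 14.2 and 14.3 RPKM. The helicase Ddx46 also fell (log2 ratio -0.53), a call lost under both corrections for length and GC content (adjusted p = 0.249 and 0.0690). Uhmk1 went from -0.99 to -0.52 and -0.59 under them, U2af1l4 from 0.78 to 0.53 and 0.46, and Lsm5 from 0.70 to 0.43 and 0.27.

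For the 38 genes of catalytic activation, 9 rose and 9 fell (23.7% each, against 26.3% and 24.0% of all genes). Among them were Syf2 and Ppie upwards (log2 ratios 0.67 and 0.53) and Cwc25 downwards (-0.72). Cwc25 was 1.73 RPKM in the control, then 0.652 and 0.658 RPKM after knockdown. Its mean of 1.01 RPKM barely passed the filter. Of 57 other regulators of alternative splicing, 16 rose (28.1%) and 15 fell (26.3%), near the shares of all genes. Qk, on 2 gene IDs, counts in both. Under 1 ID it rose from 0.348 to 1.46 and 1.24 RPKM, and under the other it fell from 17.5 to 13.7 and 11.2 RPKM. The ID that rose had a control value under the limit of 1 RPKM. Its mean reached that limit because both knockdown values were above it, so its place among the tested genes depended on the rise itself. Among the regulators that fell, 3 were the only genes of the 7 lists lower at least 2-fold on the log2(RPKM + 1) scale in both libraries. Mbnl2, a muscleblind protein, fell from 102 to 41.7 and 30.9 RPKM, Rod1 (now Ptbp3), a relative of the polypyrimidine tract binding protein, from 27.8 to 12.9 and 9.29 RPKM, and Son, a speckle protein, from 9.30 to 3.80 and 3.70 RPKM. Of 15 kinases, phosphatases and transporters of SR or hnRNP proteins, 2 rose (13.3%) and 6 fell (40%), and their median log2 ratio was -0.20. Of all genes tested 26.3% were called higher and 24.0% lower. Tnpo1, an import receptor that carries Hnrnpa1 into the nucleus, fell from 33.7 to 18.3 and 15.7 RPKM, Akt1 from 115 to 77.5 and 74.1 RPKM and Ppp1cb from 67.8 to 47.4 and 41.1 RPKM. Under the corrections the log2 ratio of Tnpo1 went from -0.95 to -0.39 and -0.47, that of Ppp1cb from -0.61 to -0.93 and -0.26, that of Son from -1.12 to -0.68 and -0.74, and that of Rod1 from -1.27 to -1.12 and -0.84. Ppie went from 0.53 to 0.36 and 0.28.

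Of 19 genes of snRNP assembly, 7 rose (36.8%) and 1 fell (5.26%), against 26.3% and 24.0% of all genes, with a median of 0.11. Smn1, which loads the Sm ring onto snRNA, rose from 3.56 to 5.85 and 6.08 RPKM, its partner Sip1 (now Gemin2) from 3.93 to 7.60 and 6.98 RPKM, and the cap-binding subunit Ncbp2 from 8.35 to 12.2 and 12.1 RPKM. Smn1 and Ncbp2 were not called higher in the first correction for length and GC content (log2 ratios 0.25 and 0.24, adjusted p = 0.102 and 0.0703). That correction used transcripts of 223 and 574 nt for them. In the second, both were called higher (log2 ratios 0.37 and 0.43, limma adjusted p = 0.0189 and 0.00383). In the exon junction complex and messenger RNP list 12 of 27 rose (44.4%, against 26.3% of all genes), with a median of 0.26. Limma called 0 lower, also at an unadjusted p under 0.05. Under the respective corrections for length and GC content 15 and 11 were called higher (27.2% and 27.8% of all genes) and 0 lower. In the second correction 1 was lower at an unadjusted p under 0.05. Upf3a and Smg5, which act in nonsense-mediated decay, rose from 12.8 to 21.2 and 22.8 RPKM and from 10.1 to 16.3 and 17.3 RPKM, and Sap18 rose from 5.39 to 9.04 and 10.4 RPKM. Under the 3 times larger control SD limma called 0 of these 199 genes, with 17 higher and 11 lower at an unadjusted p under 0.05.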

How the data were processed

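RNA was sequenced from B16F10 cells, 1 control and 2 Med23 knockdown libraries. RPKM values per gene were computed by the authors and deposited as 1 table of 12852 genes. Tools in the submitters' processing notes are TopHat, Cufflinks and CASAVA 1.4, and the build is mm9. Which tool did what, the gene annotation and the kind of normalization are not given in the sources used here. Sorted, the 3 columns were equal within 1e-09 in 95.3% of positions, so the deposited RPKM had been quantile normalized, and depth is unknown. Splicing factors were matched by symbol, with 78 symbols in the table on 2 gene IDs and none of them a splicing factor here.

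Values were tested as log2(RPKM + 1) with limma 3.58.1 under R 4.3.3, using lmFit and eBayes (trend on intensity), over 9722 genes whose mean reached 1 RPKM. There were 1 residual and 4.37 prior degrees of freedom, p-values were adjusted by Benjamini-Hochberg, and calls needed 0.05. The fit was tested on simulated data in which the control varied like a knockdown library. That simulation could not test whether the lone control varied more. The splicing factors and lists were chosen with earlier results of these data known. Named genes were Med23, all 63 splicing factors and up to 3 called genes a list, by the smaller of both libraries' log2 ratios, except that 1 of the 63, included in counts, sums and correlations, is not reported or plotted here. Transcript length, GC content and 50-base words came from GENCODE M21 (1 basic coding transcript of median length a gene, found for 98.1%), and promoters from RefSeq, both on another build than mm9. Alternatives were a pseudocount of 0.1, no filter, a mean of 5 RPKM or more, median rescaling, a second quantile normalization, no trend, a 3 times larger control SD, loess correction for length and GC, a fold limit of 1.5 and leaving out either knockdown library. A planned description of protein sequences was not made, because no protein table was used here. Python 3.11.15, pandas 2.3.3 and matplotlib 3.10.9 were used.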

Additional observations from a re-analysis of the deposited data

How the results depend on the processing

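With a 3 times larger control SD, limma called 0 splicing factors in either direction, in all and in each class, and 0 of the other splicing genes, and Med23 (log2 ratio -1.24) had an adjusted p = 0.108. The log2 ratios of all 63 splicing factors kept their sign and side of the threshold with a pseudocount of 0.1 and with median rescaling. Calls lost were 5 with no filter, 5 with a minimum of 5 RPKM (3 not past the threshold, and Prpf31 and Sf3b4 not tested), 6 with no intensity trend and 1 with a second quantile normalization. Lower Snrp calls went from 2 to 1 with no filter, a minimum of 5 RPKM or no trend. Lower Prpf calls went from 3 to 1 with a minimum of 5 RPKM, where Prpf31 and Prpf4 were not tested, and to 1 in both corrections for length and GC content. The first correction gave 2 lower SR calls in place of 1, and the second gave 8 higher hnRNP calls in place of 5. Genes that changed sign in the first correction were Srsf1 (0.11), Srsf2 (-0.0352), Srsf10 (0.0214), Sfrs18 (0.23), Prpf8 (0.0140), Prpf4b (0.49), Prpf38b (0.0582), Prpf39 (0.21), Hnrnpul2 (0.0435) and Sf3b5 (0.18), and in the second Srsf1 (0.27), Srsf5 (-0.0894), Srsf10 (0.0120), Sfrs18 (0.13), Prpf4b (0.40), Prpf39 (0.11) and Sf3b5 (0.10). With a fold limit of 1.5, 9 splicing factors were higher and 3 lower in both libraries. Without its most abundant gene the change in summed RPKM was -8.23% for hnRNP, -4.57% for SF3 and 5.02% for Prpf. With either knockdown library left out, the 2-fold counts stayed at 2 and 0, Med23 ranged from -1.25 to -1.23 and the change in summed RPKM from -0.251% to 7.52% for hnRNP, 9.43% to 17.4% for SR, -21.2% to -17.2% for SF3, 18.8% to 26.7% for Snrp and -7.38% to -3.17% for Prpf. Except where fewer genes were tested, the cause was not tested. Leaving out a library left no residual degrees of freedom, so no count of calls could be given. No paired analysis was possible because the control has 1 library and the groups share fewer than 2 replicate numbers. Depth is unknown, so counting error could not be given.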
